A study of Glycine max with 18 samples.

Results

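CKX3, a soybean cytokinin oxidase gene, was 1 of 6031 genes that the probe table places on the array. It was read by 1 of the 37593 soybean probe sets of the Affymetrix Soybean Genome Array, GmaAffx.68724.1.A1_at. This was the single probe set that the array's probe table pairs with the symbol CKX3 or a synonym of it, and it passed the filter on low signals. The gene was chosen by its high signal in the outer integument, so its outer integument values are given as a description with no test. Every value comes from this 1 probe set, and no other CKX3 probe set was there to compare it with. The strand that the probe set reads was not checked here.

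The arrays were made from seeds, 2.5 to 3.0 mm long, of soybean cultivar Asgrow A3237 with embryos at the cotyledon stage. The plants were kept at 22 °C under 16 h days and 8 h nights. The 18 arrays fell into 9 groups of 2: embryo proper, suspensor, endosperm, endothelium, inner integument, outer integument, epidermis, hilum and whole seed. The first 8 groups were cut by laser from 8 µm sections of fixed, paraffin-embedded seeds and extracted with a PicoPure kit, and whole seed was ground and extracted with another reagent. In every group 2 ng of RNA was amplified before labelling, and the groups share genotype, stage and growth conditions. The labels do not say how many seeds or plants an array holds, so p-values measure the spread between these arrays, which can be partly technical.

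Cytokinins are adenine-derived hormones that promote cell division and help to set how strongly a tissue draws in nutrients. Cytokinin oxidases end their action by irreversibly cutting off the side chain, and isopentenyl transferases carry out the first committed step of synthesis. In developing seeds cytokinin is typically abundant early, while tissues are still dividing, and in rice and barley the activity of single cytokinin oxidase genes is known to affect grain number. The outer integument, inner integument and endothelium are maternal layers of the seed coat, the epidermis covers it, and the hilum is the scar where the seed was attached. The endosperm, the embryo proper and its stalk, the suspensor, come from fertilization.

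CKX3 is on chromosome 17 of the RefSeq annotation of Glycine_max_v4.0, and that annotation was used for names and gene order only. Of the 16 genes nearest to it, 8 on each side, 1 had a probe set listed, LOC100818687. That neighbour was high in every group, from a geometric mean of 16588 in whole seed to 43173 in endosperm, with 20973 in outer integument. Its order of groups was therefore not that of CKX3, which was lowest in endosperm.

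Arrays differed in background, taken here as the level below which 95% of 23350 probe sets designed for other organisms lay. It ran from 106 to 216, with the highest value on hilum array 2, and it was higher on epidermis array 2 (213), inner integument array 1 (207) and outer integument array 1 (197) than on their partner arrays (134, 135 and 152). Earlier results of these data had singled out these 3 arrays, although hilum array 2 (216 against 184 on array 1) was as high. Without the 3 all 7 calls for CKX3 given below held, and inner integument against the other 6 passed as well (log2 difference -1.28, limma adjusted p = 0.0350). Of 4 measured seed coat markers, summed signals were 135907 and 199580 in outer integument and 3408 and 3885 in embryo proper. SCB1, a seed coat BURP protein, and the peroxidase PRX2 had their highest compartment means in outer integument. Ep, the seed coat peroxidase, did not rise above background there. Its highest compartment geometric mean was 379, in suspensor, against 3943 in whole seed. ANR1 went the other way, with a geometric mean of 359 in outer integument against 39308 in hilum and 15911 in epidermis. Markers of suspensor were above background in 0 of 3 cases on both outer integument arrays. Of 4 embryo proper markers 1 was above it there, CAB3, a chlorophyll-binding protein that is no marker of embryo alone. Another of the 4, GY1, was under background in embryo proper too (geometric mean 79.1), so nothing is read from its low signal in outer integument. Of 2 endosperm markers 1 was above background there, LAX11, on both arrays.

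In the outer integument CKX3 gave a signal of 22285 on array 1 and 24503 on array 2. Whole seed gave 6403 and 8323. Hilum followed with 3935 and 4152, and epidermis with 2933 and 5135. These 4 groups were the high end of the series, and the lowest epidermis array was 5.79 times the highest array among the other 5 compartments.

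Endothelium gave 436 and 492, and embryo proper 375 and 371. Inner integument gave 506 and 235, and suspensor 168 and 408. Endosperm was the lowest group, with 54.2 and 73.3. The endosperm arrays lay below all other arrays and below the background of their own arrays (123 and 160.4), and suspensor array 1 lay below its own background of 189. Outer integument was 113 and 161 times its background, epidermis and hilum were 19.3 to 24.1 times theirs, and the 8 arrays of endothelium, embryo proper, inner integument and suspensor were 0.887 to 3.67 times theirs. In captured tissue, fewer expressing cells and less RNA per cell cannot be told apart.

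**Figure D1:**
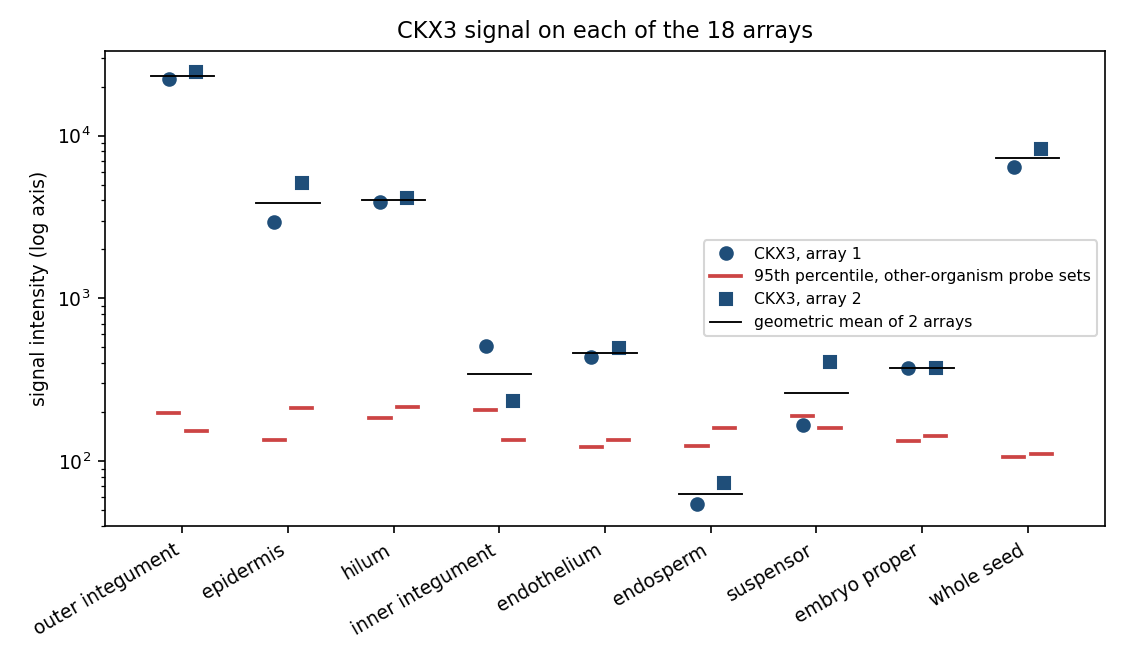
CKX3 signal intensity (vertical log axis) on each of the 18 arrays, by group (horizontal axis), with array 1 as a circle, array 2 as a square, a black line at the geometric mean of the 2 arrays and a red line at the array's background level from other-organism probe sets. Both outer integument arrays, 22285 and 24503, sit above every other array, and both endosperm arrays, 54.2 and 73.3, sit below their red lines.

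As group means the order was outer integument 23394 ± 1568 (SD, n = 2), whole seed 7363 ± 1358 (SD, n = 2), hilum 4043 ± 154 (SD, n = 2) and epidermis 4034 ± 1557 (SD, n = 2). Endothelium (464 ± 39.9), embryo proper (373 ± 2.55), inner integument (371 ± 192), suspensor (288 ± 170.1) and endosperm (63.8 ± 13.5) followed, each with SD and n = 2. Neighbours in this order whose arrays overlapped were hilum and epidermis, embryo proper and inner integument, and inner integument and suspensor. The arrays of the other neighbours did not overlap, though endothelium and embryo proper, 1.24-fold apart, are told from each other by a gap smaller than the replicate differences of inner integument or suspensor.

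The 2 arrays of a group differed least in embryo proper, by a log2 difference of 0.01, and in hilum, by 0.08. They differed most in suspensor, by 1.28, and inner integument, by 1.11. The median replicate difference over all tested probe sets was 0.45 in suspensor and 0.40 in inner integument, so the CKX3 pairs were looser there than most probe sets of the same arrays. In outer integument the CKX3 arrays differed by 0.14, against a median of 0.42.

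By brightness CKX3 ranked 423 from the top among soybean probe sets on outer integument array 1 and 351 on array 2. It stood above 98.9% and 99.1% of soybean probe sets there, above 89.3% to 94.1% in epidermis, and above 28.9% and 32.0% in endosperm. Signals of different probe sets depend on their probes as well as on RNA, so these ranks place the brightness of 1 probe set and do not compare amounts of transcript.

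Described by folds of geometric means, outer integument was 5.78-fold above hilum, 6.02-fold above epidermis and 3.20-fold above whole seed. It was 50.4-fold above endothelium, 62.7-fold above embryo proper, 67.8-fold above inner integument and 89.4-fold above suspensor. Against endosperm the fold was 371, or 166 when each array's signal was raised to its background, so that size depends on background. Against the mean of the other 7 compartments on the log2 scale outer integument was higher by 5.41, or 5.61 without the 3 arrays singled out for background. In that comparison 11.7% of tested probe sets were called higher, and since this contrast chose the gene nothing is read from it.

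The outer integument held 70.8% of the CKX3 signal summed over the means of the 8 compartments. That share was larger than for 99.8% of the 31961 probe sets tested. CKX3 was chosen for this signal, so nothing is read from the rank of its share. The mean of the 8 compartments weighted equally was 4129, and whole seed was 1.78 times that. Whole seed RNA holds the compartments in unequal amounts and was extracted differently, so whole seed was described and not tested.

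Differences among the other 7 compartments were not used in choosing the gene, though the contrasts were set with earlier results of these data known. Among these compartments CKX3 was tested in 13 contrasts with limma, fitted on all 31961 probe sets. Benjamini-Hochberg adjustment was made within each contrast. CKX3 passed in 7 of the 13 contrasts, 3 times higher and 4 times lower. The epidermis was 9.75-fold higher than the mean of the other 6 (3881 against 398 as geometric means, log2 difference 3.29 ± 0.31 SE, limma adjusted p = 5.30e-07), in a contrast where 8.71% of probe sets were called higher. The hilum was 10.2-fold higher (4042 against 395, log2 difference 3.35 ± 0.31 SE, limma adjusted p = 3.27e-07), where 12.8% were called higher. Each of these means includes the other high group, and no array of the 5 remaining compartments reached the lowest epidermis or hilum array.

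Across the layers of the seed coat, epidermis was 11.3-fold higher than inner integument (log2 difference 3.49 ± 0.41 SE, limma adjusted p = 3.05e-06), with no overlap of arrays and 13.1% of probe sets called higher. Hilum and epidermis did not pass against each other. Their fold was 1.04, with a 95% interval from 0.575 to 1.89, and 8.31% of probe sets were called in either direction. Endothelium against inner integument gave a fold of 1.34, with a 95% interval from 0.742 to 2.43 (limma adjusted p = 0.598), where 13.1% were called.

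The endosperm was 12.5-fold lower than the mean of the other 6 (63.0 against 791, log2 difference -3.65 ± 0.31 SE, limma adjusted p = 6.39e-08), with no overlap of arrays, in a contrast where 14.8% of probe sets were called lower. It was 7.35-fold lower than endothelium, the seed coat layer facing it (log2 difference -2.88 ± 0.41 SE, limma adjusted p = 3.07e-05), where 11.9% were called lower. With signals raised to each array's background, a floor chosen after seeing the data, these folds were 5.69 and 3.30 and both still passed. Under that floor both endosperm values are the background itself, so these tests set the other compartments against background. A signal below background gives no level for the gene in endosperm, so both folds are limited by it.

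The embryo, as the mean of embryo proper and suspensor, was 4.03-fold lower than the mean of endothelium, inner integument, epidermis and hilum (312 against 1258, log2 difference -2.01 ± 0.25 SE, limma adjusted p = 5.17e-06), where 15.0% of probe sets were called lower. The arrays of the 2 sides overlapped, because inner integument array 2 (235) lay among the embryo arrays (168 to 408). The other 7 seed coat arrays lay above all 4 embryo arrays, endothelium and inner integument array 1 by a smaller step than epidermis and hilum. Geometric means were 463 in endothelium and 345 in inner integument, near the 373 of embryo proper, against 3881 in epidermis and 4042 in hilum. The seed coat mean was thus raised by epidermis and hilum.

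The suspensor was 2.39-fold lower than the other 6 (261 against 624, log2 difference -1.25 ± 0.31 SE, limma adjusted p = 0.00525), where 13.8% were called lower. This call rested on suspensor array 1: the fold was 1.53 without it (limma adjusted p = 0.288) and 3.72 without array 2. The mean of the other 6 also includes epidermis (3881) and hilum (4042), which raise it. By geometric mean suspensor lay above endosperm (63.0) and below endothelium (463), embryo proper (373) and inner integument (345). The summed seed coat markers were 31372 on suspensor array 1 and 15504 on array 2, higher on the array with less CKX3, and their part in the result was not tested. Embryo proper against suspensor did not pass, with a fold of 1.43 and a 95% interval from 0.788 to 2.58 (limma adjusted p = 0.429), where 24.6% of probe sets were called in either direction.

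The remaining 3 contrasts did not pass. Embryo proper was 1.58-fold below the mean of the other 6 (limma adjusted p = 0.151), inner integument 1.73-fold (limma adjusted p = 0.0671) and endothelium 1.22-fold (limma adjusted p = 0.595). Each of these means of the other 6 is raised by epidermis (3881) and hilum (4042). By geometric mean endothelium (463), embryo proper (373) and inner integument (345) all lay above suspensor (261) and endosperm (63.0). The share of probe sets called lower was 11.0% in embryo proper, 14.3% in inner integument and 8.52% in endothelium. The inner integument value depended on both of its arrays, with a fold of 2.54 without array 1 (limma adjusted p = 0.0202) and 1.18 without array 2. It also passed without suspensor array 1 (limma adjusted p = 0.0155) or epidermis array 1 (limma adjusted p = 0.0448).

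**Figure D2:**
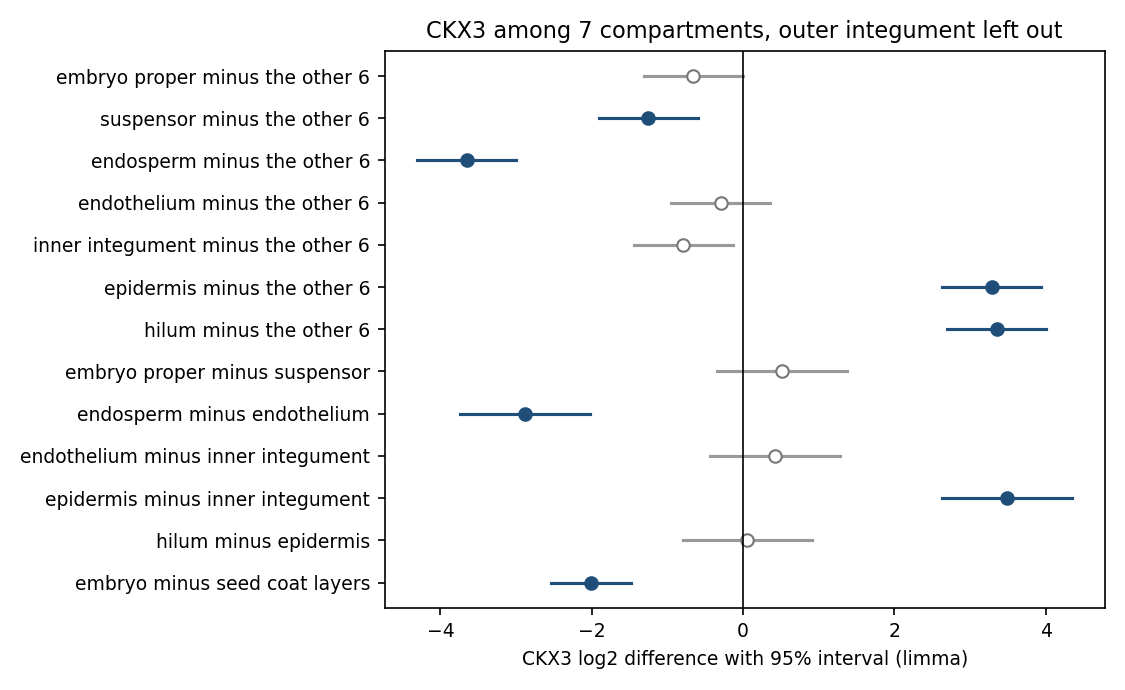
Log2 difference of CKX3 (horizontal axis) in the 13 contrasts among the 7 compartments other than outer integument (vertical axis), with 95% intervals from limma, filled where the adjusted p was under 0.05. Epidermis and hilum lie at 3.29 and 3.35, endosperm at -3.65, and hilum minus epidermis at 0.06 spans 0.

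At its high end the pattern therefore had 2 steps, a high outer integument and, below it, epidermis and hilum above the rest. The rest was not even, since endosperm lay lowest and under background. Taken alone, the first step, both outer integument arrays brighter than each of the 14 arrays from other compartments, was shown by 1436 of 31961 probe sets (4.49%). Of these, 41 had a log2 difference to the other 7 at least that of CKX3, CKX3 included. That count rests on the values that chose the gene and is a description. The second step, all 4 epidermis and hilum arrays above the 10 arrays of the other 5 compartments, was described after the values had been seen, and 751 probe sets (2.35%) showed it. The log2 difference of the 2 groups to the other 5 was 3.98 for CKX3 (15.8-fold), larger than for 99.5% of tested probe sets.

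Both steps together were shown by 93 probe sets (0.291%), of which 56 had no gene in the probe table, 15 had a LOC symbol and 22 had another symbol. The 22 read 14 genes, and 4 of all 93 probe sets had an outer integument difference at least that of CKX3, CKX3 included. The other 3 read the lipoxygenases LOX7, by 2 probe sets, and LOX9. These genes were singled out after their values were seen, and they are a description of the arrays that chose CKX3.

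**Figure D3:**
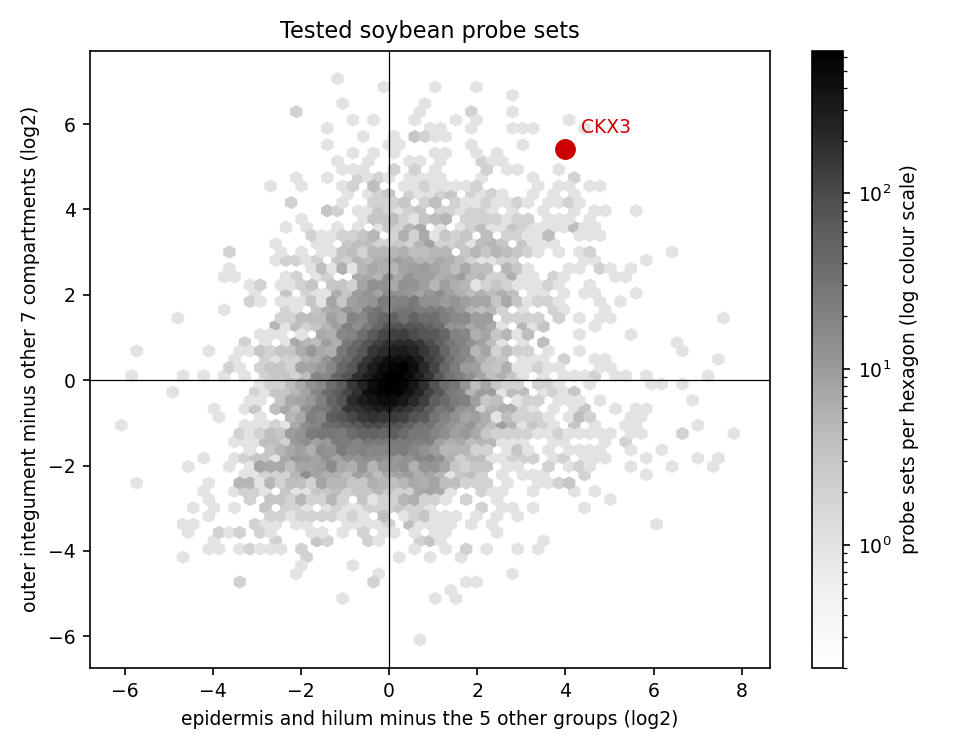
Log2 difference of outer integument to the mean of the other 7 compartments (vertical axis) against that of epidermis and hilum to the mean of endothelium, inner integument, endosperm, suspensor and embryo proper (horizontal axis) for 31961 probe sets, with the number per hexagon in grey on a log scale. CKX3, in red at 3.98 and 5.41, lies at the upper right edge of the cloud.

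Likeness to CKX3 was measured by the Pearson correlation of log2 signals over the 18 arrays, across 928 other genes with a symbol that is not a LOC number. The arrays share tissue groups and their scaling, so the correlations describe the arrays and carry no p. The 8 most alike were VLXB (r = 0.943), NRT1-3 (0.942), LOX7 (0.923), GLYI-17 (0.920), GASA22 (0.906), XTH1 (0.902), DD2/63 (0.90) and GER10 (0.882). Over all probe sets the median r was 0.03, 34 were over 0.9, and the highest was 0.946. With the 2 outer integument arrays left out, r of these 8 over 16 arrays ran from 0.825 for GER10 to 0.940 for GASA22.

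VLXB, a vegetative lipoxygenase, gave 18688 and 22507 in outer integument, 4476 and 4471 in epidermis, 5027 and 4731 in hilum, and 407 and 252 in endosperm. NRT1-3, named for the nitrate transporter family, gave 43997 and 34671 in outer integument, 12797 and 10475 in epidermis, 13906 and 10397 in hilum, and 207 and 166 in endosperm. LOX7 gave 54424 and 57950 in outer integument, 196 and 40.3 in suspensor, and 126 and 19.9 in endosperm. In these 3 genes both outer integument arrays lay above all other arrays, as for CKX3. The endosperm arrays of LOX7 overlapped those of suspensor, which was not so for CKX3. For CKX3, suspensor array 1 and both endosperm arrays lay under background. For LOX7, array 2 of both groups did, so no difference between the genes is read from this. The name of the LOX7 probe set marks that some of its probes can also bind other transcripts.

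GLYI-17, named for glyoxalase I, which helps to clear methylglyoxal, gave 2604 and 2649 in outer integument. It was below the floor of 50 on all 4 arrays of embryo proper and suspensor. In endosperm it gave 60.1 and 88.2, also under background, so these low groups have no order. GASA22, of a gibberellin-responsive family, broke the order at its top. Its outer integument signals of 5071 and 3867 overlapped those of epidermis (4944 and 4950) and hilum (4059 and 6494).

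XTH1, named for enzymes that recut xyloglucan of the cell wall, was 12203 and 14399 in epidermis but 3353 and 4098 in hilum, 2 groups that did not pass against each other for CKX3. GER10, of the germin-like proteins, was likewise higher in epidermis (3247 and 3284) than in hilum (1721 and 1173). Both XTH1 hilum arrays lay below the XTH1 signals in embryo proper (4522 and 4250), so XTH1 lacked the second step of CKX3. DD2/63 spanned a narrow range, from 1095 and 906 in outer integument to 191 and 234 in endothelium, and the name of its probe set marks shared sequence with related transcripts.

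**Figure D4:**
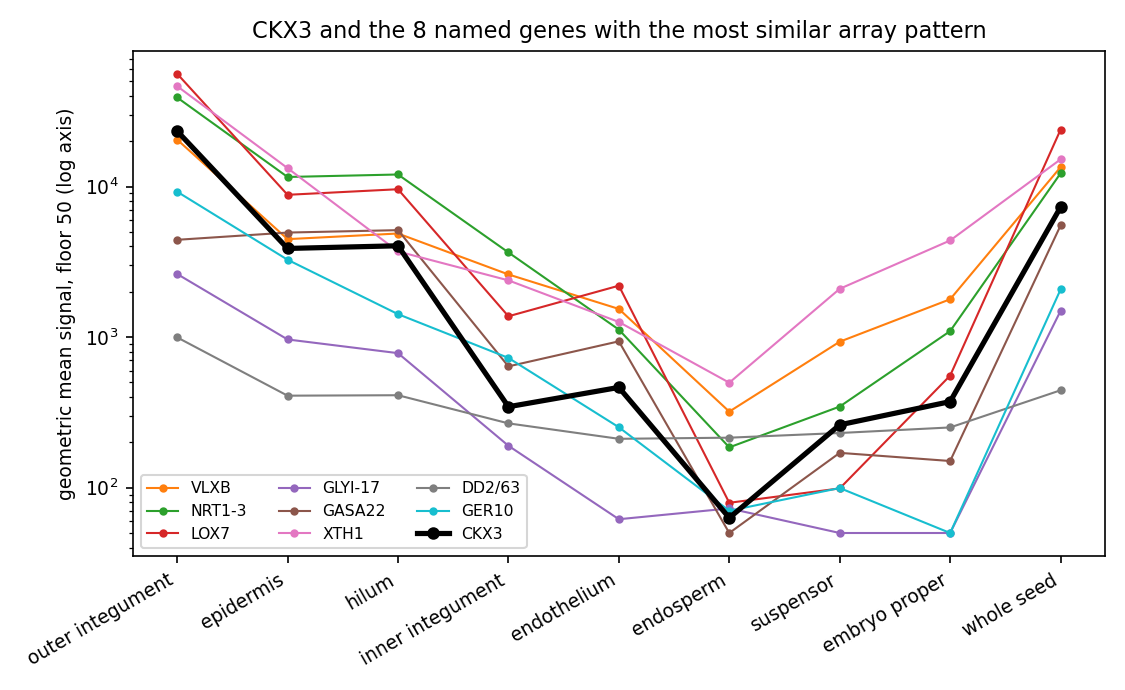
Geometric mean signal of 2 arrays with a floor of 50 (vertical log axis) in each of the 9 groups (horizontal axis) for CKX3 in black and the 8 most alike named genes in colour. GASA22 is the gene without a peak in outer integument, and CKX3 falls from 23368 there to 63.0 in endosperm.

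Of the cytokinin pathway, the symbol patterns matched 5 genes in the RefSeq table. Besides CKX3, 1 of these had a probe set, IPT, whose symbol stands for isopentenyl transferase. CKX1, a second cytokinin oxidase, and PRR3A and PRR3B, which match the pattern for response regulators but belong by name to the pseudo-response regulators of the clock, had none listed. Receptors, phosphotransfer proteins and other response regulators were not named by the tables, and 28546 soybean probe sets had no gene listed, so the pathway was seen through 2 genes.

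IPT was dim throughout. Its signals ran from 9.3 on endosperm array 2 to 185.5 on hilum array 2, and 16 of 18 arrays lay under their background. In outer integument IPT gave 59.1 and 86.1, both under background, and it gave 162 and 145 in epidermis. In 17 contrasts, 4 of which held outer integument, IPT passed in 0 by limma, with 5 at an unadjusted p under 0.05 and a lowest adjusted p of 0.110. Against the other 7 compartments the log2 difference in outer integument was -0.33 ± 0.39 SE (limma adjusted p = 0.596), where 10.4% of tested probe sets were called lower. In outer integument against inner integument, epidermis and hilum, where 20.6%, 14.0% and 16.7% of probe sets were called in either direction, IPT was not called. Without a floor on the signal, 1 IPT contrast passed, endosperm against the other 6 (log2 difference -1.96, limma adjusted p = 0.0348), on signals under background.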

How the data were processed

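The authors deposited 1 intensity on a linear scale for each probe set, made with GCOS 1.3 per the submitters' processing notes. Its settings and any background step are not given in the sources used here. The trimmed mean was 500.1 on all 18 arrays as measured in the table, which held no detection calls. No 2 arrays held identical values. Signals under 50 were set to 50 and taken to log2, and soybean probe sets that reached 100 on 2 or more arrays entered the fit (31961 of 37593). limma 3.58.1 in R 4.3.3 (lmFit, eBayes with a variance trend) fitted 9 group means, with Benjamini-Hochberg adjustment within each contrast and a threshold of 0.05. The fit was tested on simulated data, and alternatives were other floors, filters and scalings, a replicate block and arrays left out. The number of arrays limits the precision. Named are every CKX3 probe set, the pathway genes, and the 8 most alike genes, each read from its brightest probe set. The gene, the pathway patterns, markers and contrasts were chosen with earlier results of these data known. Arrays with the same replicate number did not deviate together (36 pairs of groups, r from -0.07 to 0.08), so arrays were not paired.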

Additional observations from a re-analysis of the deposited data

How the results depend on the processing

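All 7 CKX3 calls kept direction and significance under the 13 alternatives that left out no single array: adjusted p was at most 0.0216 in suspensor and at most 0.00121 in the other 6. Leaving out single arrays, the suspensor contrast ran from -1.90 to -0.61 and lost its call without suspensor array 1 (adjusted p = 0.288), and the outer integument difference ran from 5.31 to 5.50. Inner integument against the other 6 (-0.79) passed with a floor of 100 (-0.90, adjusted p = 0.0448), with median centring (-0.90, adjusted p = 0.0273), without epidermis array 2, inner integument array 1 and outer integument array 1, the 3 arrays singled out for background (-1.28, adjusted p = 0.0350) and with the floor at background, chosen after seeing the data (-0.996, adjusted p = 0.00423), and ran from -1.34 to -0.23 over single arrays left out. It passed without suspensor array 1, epidermis array 1 or inner integument array 1. Embryo proper against the other 6 passed with the floor at background (-0.86, adjusted p = 0.0163) and without suspensor array 1, with a range from -0.76 to -0.55. Signs turned in contrasts that did not pass: hilum minus epidermis was -0.082 with median centring and ran from -0.35 to 0.46, embryo proper minus suspensor from -0.13 to 1.15, and endothelium minus inner integument from -0.13 to 0.98. The cause of these changes was not tested. Scaling moved the median of all probe sets by up to 0.27 (log2, hilum against the other 6 with median centring).

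IPT lay under background on 16 of 18 arrays. With a floor of 100 IPT was -0.11 in embryo proper, -0.10 in inner integument and -0.000602 in embryo proper minus suspensor, and endosperm minus endothelium had no value, both being at the floor. With the floor at background it was -0.25 in embryo proper, 0.14 in suspensor, -0.34 in embryo proper minus suspensor, 0.13 in endosperm minus endothelium, 0.10 in hilum minus epidermis, 0.12 in outer integument against the other 7 and 0.052 against inner integument. With quantile normalization inner integument was -0.045, with median centring it was -0.044 and endosperm minus endothelium 0.022. Without the 3 arrays singled out inner integument was -0.37 and outer minus inner integument 0.30. Without a floor endosperm passed (-1.96, adjusted p = 0.0348). Over single arrays left out, IPT ran from -0.10 to 0.44 in embryo proper, -0.88 to 0.38 in suspensor, -0.35 to 0.44 in inner integument, -0.27 to 0.99 in embryo proper minus suspensor, -0.17 to 0.10 in endosperm minus endothelium, -0.39 to 0.27 in hilum minus epidermis, -0.55 to 0.078 in embryo minus seed coat and -0.76 to 0.027 in outer minus inner integument.

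With the replicate block, epidermis against the other 6 was 3.29 (adjusted p = 5.71e-07), and none of the 13 CKX3 and 17 IPT contrasts changed its call. Counts of probe sets called moved by over 1.5 times when 1 array was left out: 7410 in embryo proper to 4108 and 3925 without its arrays 1 and 2, 9308 in endosperm to 5310 and 6060, 5501 in endothelium to 3076 and 3324, 7221 in hilum to 4493 and 3769, 2655 in hilum minus epidermis to 1753 and 1600 without hilum arrays 1 and 2, 5028 in epidermis to 2490 without its array 2, 7866 in embryo proper minus suspensor to 5242 without embryo proper array 2, and 4195 in endothelium minus inner integument to 2751 and 2687 without endothelium arrays 1 and 2 and 2327 without inner integument array 1. Leaving out those 3 arrays gave 2521 calls in epidermis, 2546 in endothelium minus inner integument and 5003, against 8029, in epidermis minus inner integument. Probe sets with epidermis and hilum above the other 5 compartments numbered 421 with median centring, against 751. CKX3 showed both steps under quantile normalization, median centring, no filter and the filter at 300. Of the 8 most alike genes, GLYI-17 and GER10 left the first 8 in 1 of 6 settings each. No detection call was used, so signal over background limits the low groups.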
